A study of Mus musculus with 8 samples.

Results

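The genes examined here are 10 members of the Toll-like and Nod pattern recognition system, namely the receptors Tlr2, Tlr3, Tlr4, Tlr5, Tlr9, Nod1 and Nod2, the adaptors Myd88 and Ticam1, and the kinase Ripk2. They were selected by symbol from the 53801 genes of a count table, and all 10 had an entry in it. The table holds RNA-seq counts of Paneth cells sorted from the small intestine of 8 mice. The 4 controls were Mll1+/- and the 4 knockouts were Mll1-/-, and according to the account of the sort in the study both genotypes also carried the β-catGOF allele, in which loss of exon 3 stabilizes β-catenin. Mll1 is the histone methyltransferase that the table lists as Kmt2a. Recombination was driven by CreERT2 from the Lgr5 locus, which is active in crypt base stem cells, after 1 mg of tamoxifen given intraperitoneally on each of 3 days. Crypts were taken 10 days after induction. The description of the sort in the methods names the Lgr5-EGFP-IRES-CreERT2 and Mll1 flox alleles and not the β-catenin allele, so the β-catGOF status of these 8 mice is given here as the study's results state it. Viable EpCAM+ CD24+ cells were collected. A gate on a recombination marker is not stated, and this gate can also admit other CD24+ epithelial cells. Age and sex of the mice are not given in the labels. For its mice in general, the study's methods give an age range at induction and analysis of both sexes.

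Pattern recognition receptors bind molecules that are common to microbes. Toll-like receptors sit in the cell surface or endosomal membrane and signal through the adaptors MyD88 or TRIF, which is encoded by Ticam1, towards NF-κB and interferon regulatory factors. Nod1 and Nod2 are cytosolic sensors of peptidoglycan fragments that signal through the kinase Ripk2. Paneth cells secrete lysozyme, defensins and Reg3 lectins into the crypt, and Myd88 signalling within Paneth cells and Nod2 are known for their part in this defence.

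The regions before a RefSeq start site of the gene with the most counts (Tlr3), of the adaptor with the highest level per length (Myd88) and of the gene without counts (Tlr9) are shown to set the sequence beside the measurements. RefSeq promoter windows on GRCm38.p6, from 250 bases before to 50 bases after the start, were found for 8 of the 10 members, and Tlr4 and Ripk2 had none. Each line gives the 250 bases before the start, 5′ to 3′ on the strand of the gene. For Tlr3 and Myd88 these bases lie inside the gene span used for counting, downstream of its outer 5′ end. They precede a RefSeq start only. Capitals mark a match to either of 2 motifs on either strand, GGGANTTTC for NF-κB in Tlr3 and GAAANNGAA for interferon regulatory factors in Myd88.
Tlr3, chr8:45410381-45410630, minus strand: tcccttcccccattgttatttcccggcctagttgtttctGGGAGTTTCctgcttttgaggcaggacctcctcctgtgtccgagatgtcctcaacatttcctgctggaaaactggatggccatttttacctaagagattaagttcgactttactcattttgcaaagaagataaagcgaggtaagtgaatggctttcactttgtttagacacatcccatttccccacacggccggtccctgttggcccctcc
Myd88, chr9:119340019-119340268, minus strand: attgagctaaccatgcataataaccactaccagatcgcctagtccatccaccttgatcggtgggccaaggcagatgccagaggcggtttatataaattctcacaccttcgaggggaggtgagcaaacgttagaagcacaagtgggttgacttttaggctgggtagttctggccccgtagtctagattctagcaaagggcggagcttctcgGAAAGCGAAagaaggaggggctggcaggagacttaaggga
Tlr9, chr9:106222348-106222597, plus strand: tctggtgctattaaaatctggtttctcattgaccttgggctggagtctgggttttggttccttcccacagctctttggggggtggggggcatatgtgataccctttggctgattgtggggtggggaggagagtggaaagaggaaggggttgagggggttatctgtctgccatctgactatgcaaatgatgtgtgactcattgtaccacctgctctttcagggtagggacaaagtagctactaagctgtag

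The Tlr3 match begins 211 bases before its RefSeq start and the Myd88 match 40 bases before its own. Among all 32851 windows of 300 bases, 1.11% held GGGANTTTC and 8.56% held GAAANNGAA. The Tcf/Lef motif ATCAAAG, read by the factors that partner β-catenin, was found in 3.73% of all windows and in 0 of the 9 member windows, where Nod1 has 2 windows. The Tlr9 window holds 0 CpG dinucleotides, as 5.4% of all windows do, while the other member windows hold between 6 and 15 and the median window holds 7. Each motif was searched on both strands and the matches do not overlap. These letters describe the reference sequence, and binding or methylation was not measured.

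Library totals lay between 13037832 and 14380240 counts. Levels are given as normalized CPM, that is counts per 1000000 (CPM) of a library total rescaled by the trimmed mean of M-values (TMM), and 3 counts correspond to between 0.173 and 0.353 normalized CPM depending on the library. Knockout 3 stood apart, with 19662 genes detected against 22623 to 26074 in the others, with 88.1% of its counts in its 50 most abundant genes against 76.4% to 84.8%, and with the lowest TMM factor (0.632 against 0.821 to 1.337). Kmt2a counts summed over exons did not separate the genotypes (log2 fold change, knockout minus control, -0.06 ± 0.24 SE, adjusted p = 0.995, edgeR quasi-likelihood test), and whole-gene counts cannot show a deletion of single exons, so the labels were used as given. From Mll1 protein staining of crypt sections, the study reports loss of Mll1 in crypt cells, Paneth cells among them, by the day of the sort. All 20 Paneth cell markers were detected, with summed levels between 280000 and 822000 normalized CPM. Of 20 immune markers, 11 had at most 3 counts in every library and 3 passed the filter on low counts, and without Lyz2, which Paneth cells can share, the other 19 summed to between 6.73 and 15.7 normalized CPM in controls and between 2.92 and 15.6 in knockouts. Of 10 enteroendocrine markers 9 had negative log2 fold changes, with a median of -1.69, and of 9 tested tuft cell markers 8 did, with a median of -0.8. Of 7 tested enterocyte markers 6 did, with a median of -0.77, of 10 stem cell markers 7 did, with a median of -0.26, and of 10 goblet cell markers 5 did, with a median of 0.01. An unadjusted p under 0.05, which 6.88% of all tested genes had, was found for 7 enteroendocrine, 1 tuft, 3 enterocyte, 5 stem and 2 goblet markers, 1 of the enteroendocrine markers (Neurod1, adjusted p = 0.0629, edgeR) met a false discovery rate of 10%, and 0 in these lists were called at 0.05. Of the markers with an unadjusted p under 0.05, only the stem cell genes Axin2 (log2 fold change 0.9) and Tnfrsf19 (1.36) were higher in the knockouts. The 2 goblet markers were Fcgbp (-2.24) and Zg16 (-5.05). The part of these other cell types in the values below was not tested. The p-values rest on 4 mice a genotype and measure the spread between these libraries, in which animal and amplified library cannot be told apart.

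The 10 members were expressed at low levels and together took between 142 and 435 counts in a library. Summed over the members this came to 13.1 to 20.6 normalized CPM in the controls and 14.7 to 25.9 in the knockouts. Tlr3 gave the most counts, with 612 over the 8 libraries, followed by Myd88 with 449, Ticam1 with 280, Ripk2 with 225, Tlr2 with 162 and Nod1 with 149. Nod2 gave 45 counts, Tlr5 20, Tlr4 17 and Tlr9 0. A filter on low counts, which 13439 genes passed, was passed by 6 members, written below as the tested members, and not by Tlr4, Tlr5, Tlr9 and Nod2. In mean level, Tlr3 exceeded 47.5% of those tested genes, Myd88 43.7% and Ticam1 29%, whereas Nod1 exceeded 12.9%. In such pools, fewer cells with a transcript and less RNA per cell cannot be told apart.

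**Figure D1:**
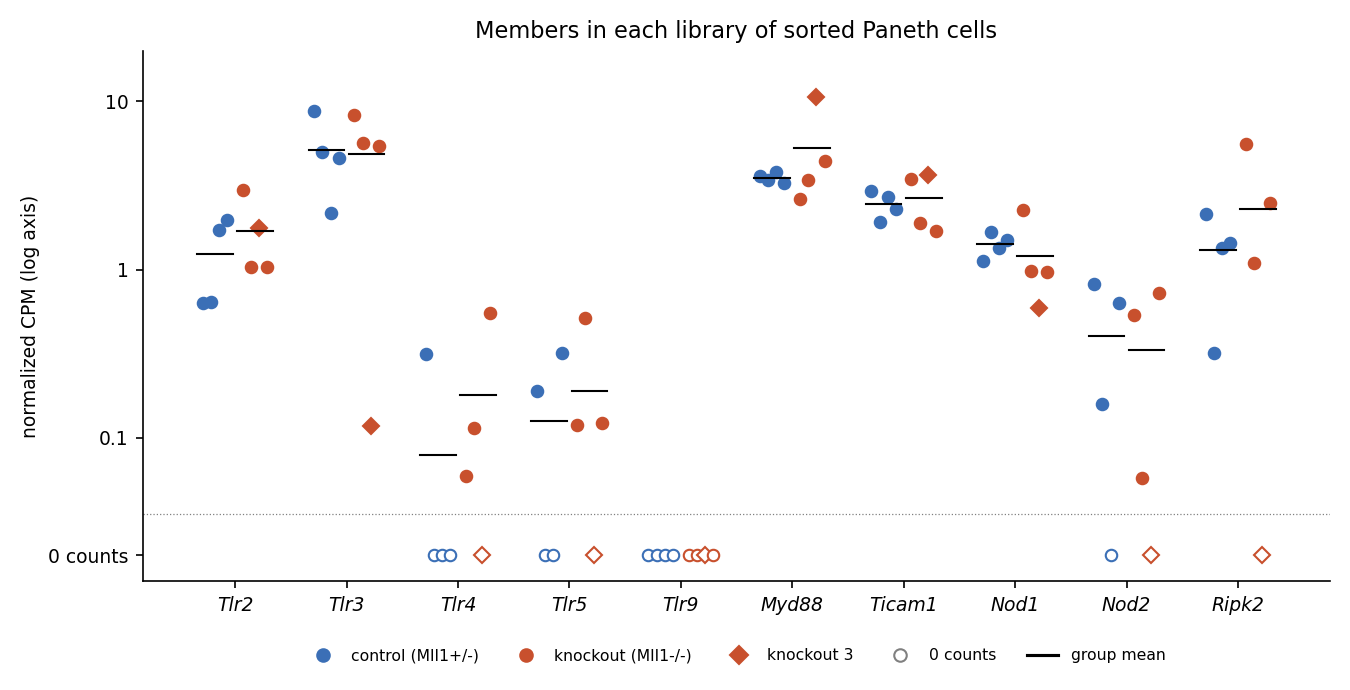
Normalized CPM (log axis) of each member in each library, with controls in blue, knockouts in orange, knockout 3 as a diamond, group means as black lines and libraries without counts as open symbols below the dotted line. The 2 genotypes overlap for every member with counts, and knockout 3 holds the highest Myd88 value (10.6) and the lowest Tlr3 value (0.118).

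Per length of exon, Myd88 came first with a mean of 1.7 normalized CPM per kb over 8 libraries (range 1.02 to 4.12). Tlr3 had a mean of 0.961 (0.0226 to 1.69), Ticam1 of 0.86 (0.569 to 1.22), Ripk2 of 0.64 (0 to 1.99), Tlr2 of 0.488 (0.209 to 0.988) and Nod1 of 0.258 (0.116 to 0.446). Nod2 followed with 0.0731, Tlr5 with 0.033 and Tlr4 with 0.0233, each with at least 1 library at 0. On the mean of log2 values the order was Myd88, Ticam1, Tlr3, Tlr2, Ripk2, Nod1, Nod2, Tlr5, Tlr4 and Tlr9. Of the 9 pairs of neighbours in that order, 0 passed an exact paired sign-flip test over the libraries after adjustment for 9 pairs. With 8 libraries the smallest p of this test is 0.00781, and a single pair at that value has an adjusted p of 0.0703, so 1 pair alone could not have passed. The closest were Nod1 over Nod2, higher in 8 of 8 libraries (mean log2 difference 2.33 ± 1.6 SD, exact two-sided p = 0.00781, adjusted p = 0.0702), and Myd88 over Ticam1, higher in 7 of 8 (0.89 ± 0.61 SD, exact p = 0.0156, adjusted p = 0.0702). Without knockout 3, Tlr3 moved above Ticam1 and Ripk2 above Tlr2.

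The levels of other sensors were set beside the members after their values had been seen and without a test. The cytosolic sensors Naip5, Nlrc4, Nlrp6, Aim2 and Ifih1 had higher means per length than every member. Others lay lower, with Naip1 at 0.605, Cgas at 0.557, Dhx58 at 0.488, Nlrc5 at 0.191 and Nlrx1 at 0.143, and Nlrp1b, Nlrp10, Nlrp1a and Nlrp3 lay between 0.006 and 0.0225. Naip5, part of the cytosolic flagellin sensor, stood at 2.97 ± 0.514 normalized CPM per kb (SD, n = 8), and its partner Nlrc4 at 2.65 ± 0.779, against 0.033 for the flagellin receptor Tlr5. Naip5 shares sequence with Naip1, Naip2 and Naip6, so counts may be divided wrongly among these paralogs. The cytosolic RNA sensor Ifih1 stood at 1.87 ± 0.402 and Rigi at 1.57 ± 0.665, and both means lay above that of the endosomal RNA receptor Tlr3. The peptidoglycan-binding protein Pglyrp1, which is secreted, reached 90 ± 31.2, while the peptidoglycan sensors Nod1 and Nod2 lay at 0.258 and 0.0731. Of the other Toll-like receptors, Tlr1 had a mean of 0.113, Tlr12 of 0.0324, Tlr6 of 0.0235 and Tlr13 of 0.0121, and Tlr7, Tlr8 and Tlr11 lay at or below 0.00462.

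**Figure D2:**
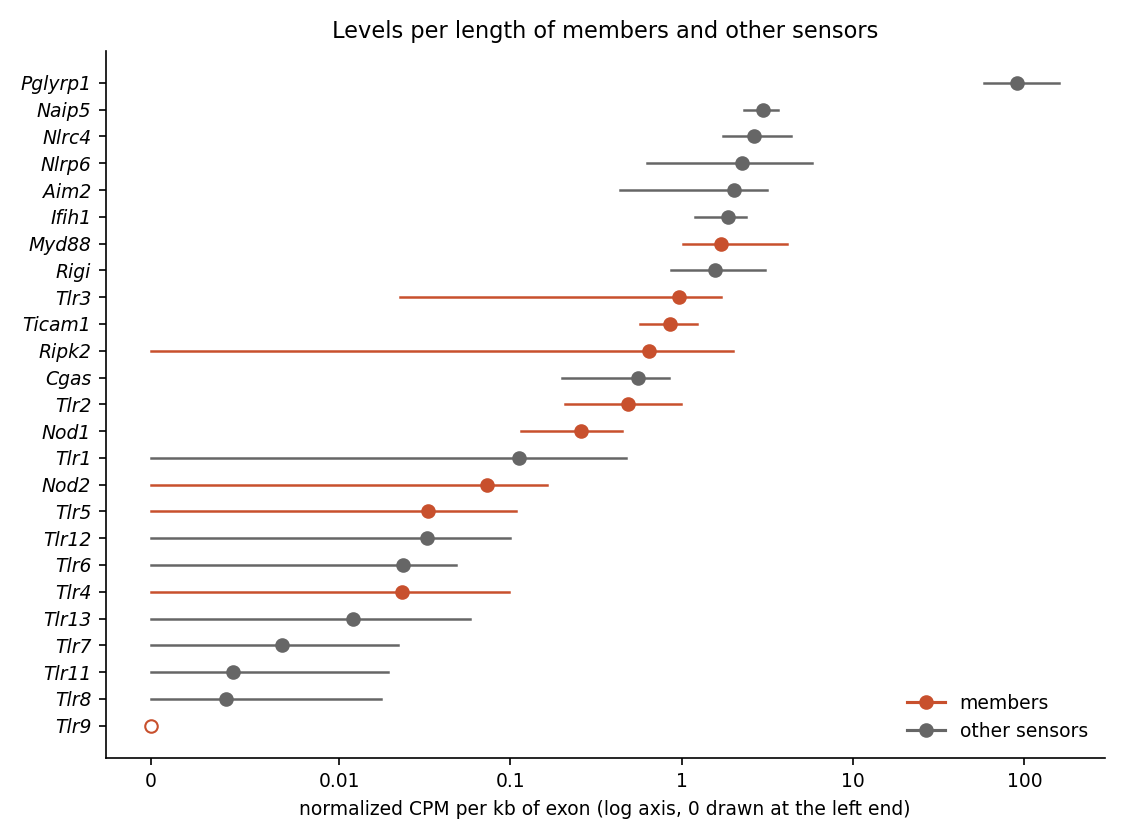
Mean normalized CPM per kb of exon (points, log axis) and the range over 8 libraries (lines) for the 10 members in orange and 15 other sensors in grey, with 0 drawn at the left end. Myd88, at 1.7, is the highest member and lies among the cytosolic sensors, while Tlr4, Tlr5 and Nod2 lie below 0.1 and Tlr9 at 0.

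Of the surface receptors, Tlr2 was counted in all 8 libraries while Tlr4 and Tlr5 were near the limit of detection. Tlr2 (chr3:83836272-83841767, minus strand, mm10), the receptor for bacterial lipoproteins, had 0.629, 0.637, 1.71 and 1.98 normalized CPM in controls 1 to 4 and 2.98, 1.04, 1.77 and 1.03 in knockouts 1 to 4. The lowest values were those of controls 1 and 2 and the highest that of knockout 1, and the genotypes overlapped. The means were 1.24 ± 0.708 in controls and 1.7 ± 0.917 in knockouts (SD, n = 4 each), which gave a log2 fold change of 0.47 ± 0.56 SE (95% interval -0.76 to 1.69, adjusted p = 0.96, edgeR). Without knockout 1 it was 0.04.

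Tlr4 (chr4:66827584-66930284, plus strand), the lipopolysaccharide receptor, had 5, 0, 0 and 0 counts in the controls and 1, 2, 0 and 9 in the knockouts. The counts above 3 were those of control 1 and knockout 4, 1 in each genotype. The mean difference, knockout minus control, was 0.102 normalized CPM (exact two-sided permutation p = 0.543, where 70 assignments of the libraries allow a smallest p of 0.0286). Its co-receptor gene Ly96 reached 5.48 ± 1.07 normalized CPM per kb (SD, n = 8), against 0.0233 for Tlr4, and Cd14, which hands over the ligand, reached 1.49 ± 0.804.

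Tlr5 (chr1:182954788-182976044, plus strand), the flagellin receptor, had 3, 0, 0 and 4 counts in the controls and 2, 9, 0 and 2 in the knockouts. A count above 3 was found in control 4 and knockout 2. The mean difference was 0.0635 normalized CPM (exact two-sided permutation p = 0.714). For Tlr4 and Tlr5 a difference between the genotypes was not detected with these counts and 4 libraries a group.

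The endosomal receptors Tlr3 and Tlr9 differed in detection. Tlr3 (chr8:45395665-45411080, minus strand), the receptor for double-stranded RNA, had 140, 63, 24 and 58 counts in controls 1 to 4 and 139, 98, 1 and 89 in knockouts 1 to 4. In normalized CPM these were 8.8, 5.01, 2.16 and 4.59 in the controls and 8.28, 5.64, 0.118 and 5.41 in the knockouts. Control 1 and knockout 1 were about equal at the top, the other values lay between them and control 3, and knockout 3 stood far below. The single count of knockout 3 has an exact Poisson 95% interval of 0.00298 to 0.656 normalized CPM, which covers counting error only and lies below the value of each other library. In these amplified libraries without molecular identifiers, counts are not independent molecules.

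The means of Tlr3 were 5.14 ± 2.74 in controls and 4.86 ± 3.42 in knockouts (SD, n = 4 each), with a log2 fold change of -0.06 ± 0.69 SE (95% interval -1.56 to 1.44, adjusted p = 0.997, edgeR). Without knockout 3 it was 0.31 ± 0.38 (interval -0.52 to 1.14, adjusted p = 0.822). Tlr3 shares 7.3% of its exon bases with Gm45542 on the opposite strand, which is listed at 0 counts in every library. The CD45 gene Ptprc, a marker of leukocytes that the panel of sort antibodies covered, was highest in the 2 libraries with the most Tlr3, with 12.6, 8.44, 3.87 and 2.93 normalized CPM in the controls and 11, 9.04, 1.3 and 1.95 in the knockouts. The lymphocyte genes Cd3e and Cd79a had at most 1 count in any library, whereas Cd3g reached 10 counts in control 1, Cd79b 24 in knockout 1 and 14 in control 4, and Ms4a1 11 in knockout 3. The macrophage gene Csf1r had at most 7 counts and Cd68 between 4 and 31, and Itgam reached 14 in control 3. The 10 tuft cell markers summed to 604, 732, 329 and 219 normalized CPM in controls 1 to 4. In knockouts 1 to 4 they summed to 478, 287, 133 and 144. The part of leukocytes or tuft cells in the Tlr3 values was not tested.

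Tlr9 (chr9:106222598-106226883, plus strand), the receptor for unmethylated CpG DNA, had 0 counts in all 8 libraries. A total of 3 counts over the 8 libraries would be 0.027 normalized CPM, so that is the level up to which its RNA could have gone unseen, counting error only. Unc93b1, the chaperone that carries nucleic acid receptors to endosomes, was present at 5.89 ± 1.08 normalized CPM in controls and 7.05 ± 1.74 in knockouts (SD, n = 4 each).

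The adaptors had the lowest biological coefficients of variation of the tested members, 0.36 for Ticam1 and 0.41 for Myd88. Myd88 (chr9:119335934-119341411, minus strand), used by most Toll-like receptors and by interleukin-1 family receptors, had 3.58, 3.42, 3.78 and 3.25 normalized CPM in controls 1 to 4. In knockouts 1 to 4 it had 2.62, 3.4, 10.6 and 4.44. The controls lay within a narrow band, which held knockout 2, while knockout 1 lay below it, knockout 4 above it and knockout 3 far above it. The means were 3.51 ± 0.228 and 5.27 ± 3.64 (SD, n = 4 each), which gave a log2 fold change of 0.56 ± 0.42 SE (95% interval -0.36 to 1.48, adjusted p = 0.9, edgeR).

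That difference rested on 1 library. Without knockout 3 the knockout mean of Myd88 was 3.49 ± 0.913 (SD, n = 3) and the log2 fold change -0.01 ± 0.29 SE (interval -0.65 to 0.63, adjusted p = 0.992). In knockout 3, Myd88 made up 63.4% of the counts of the 10 members, against 10.1% to 29% in the other libraries. Myd88 shares 11.3% of its exon bases with Acaa1a, a peroxisomal thiolase gene on the opposite strand, and the strand setting of the counting is not given in the sources used here. Acaa1a had 7.48, 7.48, 10.1 and 8.95 normalized CPM in the controls and 5.3, 5.07, 26.5 and 7.6 in the knockouts, so knockout 3 was the highest library for both genes. The part of shared reads in the Myd88 value was not tested.

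Ticam1 (chr17:56269319-56276786, minus strand), the adaptor of Tlr3 and of endosomal Tlr4, had 2.95, 1.91, 2.7 and 2.3 normalized CPM in controls 1 to 4 and 3.46, 1.9, 3.65 and 1.7 in knockouts 1 to 4. Knockouts 1 and 3 lay above all controls, knockout 2 level with the lowest control and knockout 4 below it. The means were 2.47 ± 0.459 and 2.68 ± 1.02 (SD, n = 4 each), with a log2 fold change of 0.11 ± 0.38 SE (95% interval -0.73 to 0.94, adjusted p = 0.992, edgeR). It was -0.05 without knockout 1, -0.07 without knockout 3 and 0 without control 2.

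The Nod receptors were low, and their kinase Ripk2 was the most variable of the tested members. Nod1 (chr6:54923949-54972612, minus strand), which senses peptidoglycan fragments with diaminopimelic acid, had 1.13, 1.67, 1.35 and 1.5 normalized CPM in controls 1 to 4 and 2.26, 0.979, 0.589 and 0.973 in knockouts 1 to 4. Knockout 1 lay above all controls and the other knockouts below all of them. The means were 1.41 ± 0.23 and 1.2 ± 0.732 (SD, n = 4 each), with a log2 fold change of -0.21 ± 0.49 SE (95% interval -1.28 to 0.86, adjusted p = 0.985, edgeR). Without knockout 1 it was -0.7 and without knockout 3 -0.01.

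Nod2 (chr8:88647315-88688474, plus strand), which senses muramyl dipeptide, had 13, 2, 0 and 8 counts in controls 1 to 4 and 9, 1, 0 and 12 in knockouts 1 to 4. Libraries with about 10 counts and libraries with nearly none occurred in both genotypes, and control 3 and knockout 3 had 0. The mean difference was -0.0715 normalized CPM (exact two-sided permutation p = 0.657).

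Ripk2 (chr4:16122733-16163647, minus strand) had 34, 4, 15 and 18 counts in controls 1 to 4 and 94, 19, 0 and 41 in knockouts 1 to 4. In normalized CPM these were 2.14, 0.318, 1.35 and 1.43 in the controls and 5.6, 1.09, 0 and 2.49 in the knockouts. Knockouts 1 and 4 were the highest libraries, knockout 3 the lowest and control 2 the next lowest. The 0 counts of knockout 3 allow up to 0.353 normalized CPM at 3 counts. The log2 fold change of Ripk2 was 0.83 ± 0.88 SE (95% interval -1.09 to 2.75, adjusted p = 0.945, edgeR), with a biological coefficient of variation of 0.84 against 0.376 for the common value of all tested genes. Without knockout 3 it was 1.2 ± 0.6 (interval -0.1 to 2.51, adjusted p = 0.49), and without knockout 1 it was -0.07.

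The comparison of Mll1-/- with Mll1+/- Paneth cells asks which genes change when the remaining copy of Mll1 is lost. A gene counted as called where edgeR gave it an adjusted p of 0.05 or less together with a change of 0.5 log2 units or more, and 25 of 13439 genes met this (0.186%). Of the 6 tested members 0 were called by edgeR, and 0 had an unadjusted p under 0.05, which 6.88% of all tested genes had. DESeq2 called 0 members and 138 of 13439 genes (1.03%), and limma-voom with quality weights called 0 members and 95 genes (0.707%). At a false discovery rate of 10%, which 0.283% of all tested genes met, 0 members were called as well. With 6 members, each of these shares corresponds to fewer than 1 gene. The 4 controls and 4 knockouts did not overlap for 4.52% of all tested genes and overlapped for all 6 tested members. Of these, 4 had a positive and 2 a negative log2 fold change, with a median of 0.29 against 0.01 over all tested genes, and without knockout 3 the median was 0.15 with 3 in each direction. The 95% intervals leave room for changes of more than 1 log2 unit in at least 1 direction for Tlr2, Tlr3, Myd88, Nod1 and Ripk2, so equal expression was not shown.

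**Figure D3:**
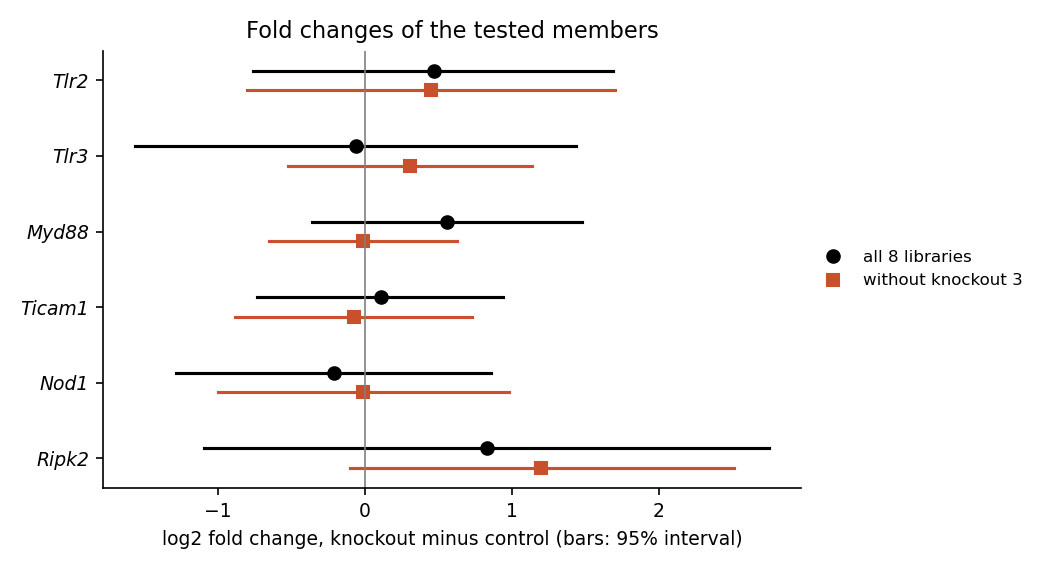
Log2 fold changes (knockout minus control, x axis) of the 6 tested members with 95% intervals from edgeR, for all 8 libraries (black circles) and without knockout 3 (orange squares). Every interval includes 0, and Myd88 moves from 0.56 to -0.01 and Tlr3 from -0.06 to 0.31 when knockout 3 is left out.

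The libraries carry a pair of runs of label numbers, and controls 1 and 2 share a run with knockouts 1 and 2. Within a run there are 2 libraries a genotype, so the ratios of group means are given without a test, for the tested members first. Tlr2 had a log2 ratio of knockout to control of 1.67 in the first run and -0.4 in the other, Ripk2 of 1.45 and -0.15, and Nod1 of 0.21 and -0.87. Myd88 went the other way, with -0.22 in the first run and 1.1 in the other, which contains knockout 3. Ticam1 had 0.14 and 0.1, and Tlr3 0.01 and -0.29. The sign differed between the runs for Tlr2, Ripk2, Nod1 and Myd88, and for Tlr3 with a value near 0 in the first. It also differed for the sparse counts of Tlr5 (1.76 and -1.38) and Nod2 (-0.72 and 0.21), while Tlr4 had -0.85 in the first run and 0 in both controls of the other.

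The wider pathway was described with 6 lists holding 146 other genes, of which 101 passed the filter and 0 were called by edgeR, DESeq2 or limma-voom. An unadjusted p under 0.05 was found for 12 of these 101 genes (11.9%) against 924 of 13439 (6.88%), and 6 did not overlap between genotypes (5.94%, against 4.52% of all tested genes). Their median log2 fold change was 0.06. The lists are described in the order of signalling, from sensors to products, and 0 of the genes that passed the filter were called with all 8 libraries. With no filter on low counts, where 290 of 37039 genes were called (0.783%), Atf3, Cxcl1, Pycard, Nlrp6, Rsad2 and Tnf were called by edgeR (adjusted p = 0.000117, 0.00166, 0.014, 0.033, 0.036 and 0.00531).

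Of 31 other pattern receptors 16 were tested, with 5 positive and 11 negative fold changes and a median of -0.11. Those with the most counts were Pglyrp1, with 155 ± 32.3 normalized CPM in controls and 176 ± 79.4 in knockouts, Naip5, with 16.5 ± 2.34 and 14.5 ± 2.95, and Ifih1, with 15.5 ± 3.55 and 15 ± 3.51 (SD, n = 4 each). The log2 fold change of Pglyrp1 was 0.19 ± 0.28 SE, or -0.18 without knockout 3. The log2 fold changes farthest from 0 were those of Nlrc5, a regulator of class I antigen presentation genes (1.45 ± 0.68 SE), and of Tmem173, the adaptor STING of cytosolic DNA sensing (0.87 ± 0.33), on one side. On the other were Nlrp6, an inflammasome sensor of the gut epithelium (-1.03 ± 0.42), and the mitochondrial protein Nlrx1 (-0.85 ± 0.71). With 1 library left out, Nlrp6 ran from -1.24 to -0.51 and Nlrx1 from -1.27 to -0.52, the last without knockout 3. The smallest adjusted p in the list was 0.593.

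Of 14 receptor accessory proteins 11 were tested, 5 with positive and 6 with negative fold changes and a median of 0. The chaperone Hsp90b1, which folds Toll-like receptors, had 176 ± 24.4 normalized CPM in controls and 173 ± 27.1 in knockouts, and Lrrc8a, a channel subunit, 24.5 ± 1.25 and 24.7 ± 10.8. Slc15a2, a carrier of di- and tripeptides, had 9.47 ± 4.41 and 5.69 ± 4.84, a log2 fold change of -0.73 ± 0.67 SE. Cd14 had -0.76 ± 0.49, while Slc46a3 had 1.13 ± 0.56, or 0.49 without knockout 3, and Unc93b1 had 0.25 ± 0.27, or 0.09 without knockout 3. With 1 library left out, Cd14 ran from -1.08 to -0.39 and Slc15a2 from -1.45 to -0.33. The smallest adjusted p was 0.774.

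Of 33 adaptors and kinases 30 were tested, 16 with positive and 14 with negative fold changes and a median of 0.03. Without knockout 3 these were 13 and 17, with a median of -0.05. The kinase Irak1, which acts just after Myd88, had 31.3 ± 5.51 normalized CPM in controls and 37.6 ± 13.5 in knockouts, Tab2 had 28.8 ± 4.51 and 27.8 ± 3.52, and the IκB kinase subunit Chuk had 24.8 ± 3.62 and 27.9 ± 1.9. The log2 fold change of Irak1 was 0.26 ± 0.24 SE, or -0.02 without knockout 3. The ubiquitin-conjugating enzyme Ube2n had a log2 fold change of 0.59 ± 0.35 SE and Peli2 of 0.5 ± 0.49, the latter -0.28 without knockout 3. The inflammasome genes Pycard and Casp1 had -0.94 ± 0.27 (adjusted p = 0.398, edgeR) and -0.83 ± 0.43 (adjusted p = 0.796). Casp1 ran from -1.22 to -0.52 with 1 library left out, the last without knockout 3, and Pycard from -1.11 to -0.73. Pycard did not overlap between the genotypes, with 47.5, 33.8, 25.1 and 31.1 normalized CPM in the controls and 17.3, 24.2, 10 and 20.1 in the knockouts.

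Of 10 transcription factors 9 were tested, 5 with positive and 4 with negative fold changes and a median of 0.15. Irf1 had 12 ± 3.45 normalized CPM in controls and 14.3 ± 4.56 in knockouts, Irf7 had 14.5 ± 7.07 and 11.4 ± 5.17, and Nfkb1 had 11.1 ± 1.52 and 13.8 ± 2.78. The NF-κB subunits Rel and Rela had log2 fold changes of 0.79 ± 0.44 SE and 0.58 ± 0.24 (adjusted p = 0.817 and 0.667, edgeR). Rela did not overlap, with 4.53, 6.92, 5.85 and 7.13 normalized CPM in the controls and 8.64, 9.39, 10.4 and 8.03 in the knockouts. Irf7 had -0.35 ± 0.39, from -0.63 to 0.02 with 1 library left out, and Nfkb2 -0.07 ± 0.34, from -0.13 to 0.05.

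Of 23 negative regulators 19 were tested, 16 with positive and 3 with negative fold changes and a median of 0.21, against 0.01 over all tested genes. The Nod2-binding scaffold Erbin had 59 ± 6.67 normalized CPM in controls and 56.7 ± 5.12 in knockouts, Atf3, a stress-induced repressor, had 26.5 ± 17.2 and 58.8 ± 10.5, and the NF-κB inhibitor gene Nfkbia 37 ± 7.15 and 47.7 ± 9.26. Log2 fold changes were 1.15 ± 0.37 SE for Atf3 (adjusted p = 0.473, edgeR), 1.58 ± 0.77 for Nfkbie and 1.23 ± 0.36 for Usp18, which restrains interferon signalling (adjusted p = 0.4). Usp18 did not overlap, with 2.31 to 3.78 normalized CPM in controls and 4.12 to 10.7 in knockouts. Sigirr, an inhibitory receptor, had -0.28 ± 0.31 and Erbin -0.06 ± 0.16. With 1 library left out, Nfkbie ran from 1.26 to 2.46 and Sigirr from -0.46 to -0.15.

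Of 35 inducible products 16 were tested, 9 with positive and 7 with negative fold changes and a median of 0.31. Without knockout 3, 19 were tested and the median was 0.82. The added genes can have passed the filter through high knockout counts alone, as Tnf did, so these medians are not comparable. The antimicrobial lectin Reg3g had 2370 ± 1340 normalized CPM in controls and 1970 ± 1360 in knockouts, the immunoglobulin carrier Pigr 578 ± 118 and 456 ± 133, and Reg3b 545 ± 382 and 257 ± 197. The chemokine Cxcl1 had a log2 fold change of 2.72 ± 1.01 SE (adjusted p = 0.588, edgeR) and Il33 of 1.89 ± 0.96, while Ccl25 had -1.12 ± 0.47 and Reg3b -1.09 ± 0.7. With 1 library left out, Reg3b ran from -1.45 to -0.57, Ccl25 from -1.69 to -0.83 and Il33 from 1.28 to 2.33. Reg3g had -0.27 ± 0.53 and ran from -0.84 without knockout 3 to 0.02. Pigr had -0.34 ± 0.25 and ran from -0.52 without knockout 3 to -0.21. The genotypes did not overlap for the chemokines Cxcl16 (1.46 ± 0.41, adjusted p = 0.361) and Ccl28 (-0.84 ± 0.25, adjusted p = 0.398) and for the interferon-induced gene Rsad2 (1.86 ± 0.77, adjusted p = 0.667), named after their values were seen. Tnf, named after its values were seen, did not pass the filter, with 8, 5, 1 and 6 counts in the controls and 113, 42, 0 and 17 in the knockouts. It was called without knockout 3 (log2 fold change 3.15, adjusted p = 0.0453, edgeR) and with all 8 libraries and no filter (2.79, adjusted p = 0.00531). Without knockout 3, which had 0 counts of it, Tnf passed the filter through the knockouts alone. That call is therefore no separate evidence of a difference.

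**Figure D4:**
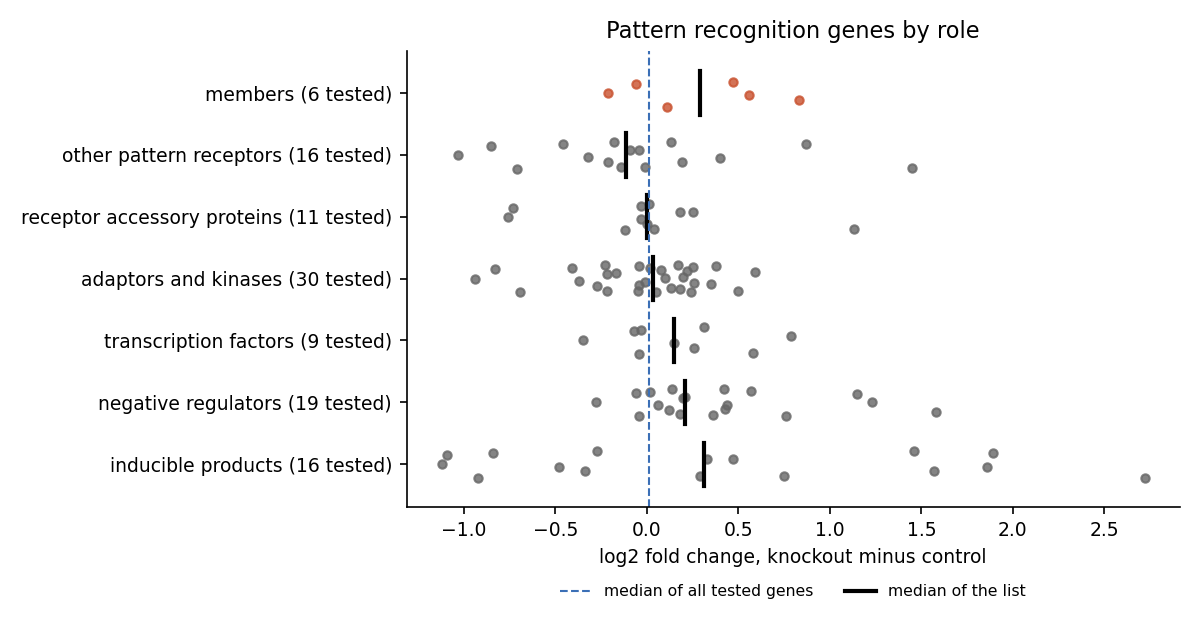
Log2 fold changes (knockout minus control, x axis) of the tested genes in each list, 1 point a gene, with the list median as a black bar and the median of all 13439 tested genes (0.01) as a dashed blue line. List medians run from -0.11 for the other pattern receptors to 0.31 for the inducible products, and the 6 members (orange) lie between -0.21 and 0.83.

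The genes whose level followed the 3 leading members most closely were named by Pearson correlation of log2(CPM + 0.5) over the 8 libraries, as a description. Myd88 was followed by Nfkbib (r = 0.977), a gene of the IκB family, Cracr2b (0.976) and Vps51 (0.976). Tlr3 was followed by Smug1 (0.985), Sectm1b (0.979) and Fnbp1l (0.978), and Ticam1 by Bcl9 (0.942), Dcaf11 (0.94) and Tarbp1 (0.937). The libraries share depth, scaling and the distance of knockout 3 from the rest, and without knockout 3 the correlations were 0.763 to 0.893 for the genes following Myd88, 0.882 to 0.926 for Tlr3 and 0.913 to 0.926 for Ticam1. They were the highest of 13439 genes and are therefore high by selection.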

How the data were processed

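RNA was measured in sorted Paneth cells of 4 Mll1+/- and 4 Mll1-/- mice with Smart-seq2, which primes on poly(A), amplifies by PCR and carries no molecular identifiers. The authors demultiplexed with bcl2fastq 2.19.1, aligned with GSNAP to mm10 and counted with featureCounts 1.6.3. The deposited values are raw counts per gene, and 92 spike-in entries were left out. Symbols were matched by identifier for 53620 of 53801 genes. In R 4.3.3, genes passing filterByExpr (minimum count 10, minimum total 15) were tested with edgeR 4.0.16 (TMM, robust quasi-likelihood, Benjamini-Hochberg over 13439 genes), after the script was tested on simulated data. Standard errors are the fold change divided by the square root of F. Members under the filter were compared with exact permutation tests. DESeq2 1.42.0, limma 3.58.1 (voom), other scalings, other filters, covariates and each library left out served as alternatives. The order of levels used log2(CPM per kb + 0.01). All members were named. From each pathway list the rule took called genes, the 3 highest means and the 2 largest changes each way. Members and lists were chosen with earlier results of these data known. Replicate numbers are names only. An animal number occurs in both the control 4 and the knockout 4 label and was left unused. The labels alone therefore do not establish that each library is a separate mouse, while the study gives 4 independent mice a genotype. Its methods describe the genotypes as littermates, but the labels name no litters, so no pairing was used. No pair of libraries agreed within sampling noise (smallest chi-square per degree of freedom 12.2).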

Additional observations from a re-analysis of the deposited data

Results flagged for a closer look

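Tlr4 in control 1 had 0.314 normalized CPM, from 5 counts, while the other 3 controls had 0. Its distance from the others spans the whole range of the group. Of 18 groups of 4 libraries (the members with counts, in each genotype) this was the 1 that passed Dixon's 95% limit. That limit is passed by chance in about 1 in 20 groups of continuous values, but any group with 1 value above 0 and 3 zeros passes it by construction, so the rate does not apply here.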

How the results depend on the processing

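In each alternative run, 0 of the members it tested were called. These were 6 members, except 9 with no filter and 2 (Myd88 and Ticam1) with at least 10 counts in every library. The smallest adjusted p of a member was 0.49 (Ripk2 without knockout 3). Several fold changes changed sign or size, among them the largest, Ripk2. Tlr3 (-0.06) was 0.4 with voom quality weights, 0.14 with a Y-linked covariate, 0.33 without control 1 and 0.31 without knockout 3, and ran from -0.42 to 0.33 with 1 library left out. Myd88 (0.56) was -0.06 with voom and -0.01 without knockout 3, with 0.79 at the other end of the leave-outs. Ticam1 (0.11) was 0 with voom, -0.04 with the Y-linked covariate, 0 without control 2, -0.05 without knockout 1 and -0.07 without knockout 3, with 0.27 at the other end. Ripk2 (0.83) ran from -0.07 without knockout 1 to 1.2 without knockout 3. Tlr2 (0.47) and Nod1 (-0.21) kept their sign but ran from 0.04 without knockout 1 to 0.79 without control 4, and from -0.7 without knockout 1 to -0.01 without knockout 3. Kmt2a (-0.06) was 0.03 with the Y-linked covariate and between -0.2 and 0.15 with 1 library left out. Pathway genes called numbered 0, but 6 with no filter (Atf3, Cxcl1, Pycard, Nlrp6, Rsad2 and Tnf) and 1 without knockout 3 (Tnf), the other leave-outs giving 0. Without knockout 3, Tnf passed the filter through the knockouts alone. All genes called numbered 25, but 290 with no filter, 13 with at least 10 counts in every library, 138 with DESeq2, 95 with voom, 10 with the Y-linked covariate, 38 at 10% false discovery rate and 10 to 152 with 1 library left out, 152 being without knockout 3. The causes were not tested. The order of levels changed without division by length and without knockout 3. Its test had 0 neighbours past the threshold in each alternative, but a single pair cannot pass it with 8 libraries or with 7, so this says nothing of stability. The low counts of Tlr4, Tlr5, Tlr9 and Nod2 limit what could be detected, and no table varied the depth.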
